A study of Mus musculus with 8 samples.

Results

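The 8 microRNAs (miRNAs) described here are known from neurons or from oligodendrocytes, the myelin-forming cells of the brain: miR-124-3p, miR-124-5p, miR-128-3p, miR-132-3p, miR-138-5p, miR-218-5p, miR-190a-5p and miR-219a-2-3p. They were taken by name from the tables of molecule counts for plasma and for cerebrospinal fluid (CSF), leaving aside miR-9, and they are 8 of the 1978 mature miRNAs listed in either fluid. All 8 were listed in both fluids and had at least 1 counted molecule in every library. The RNA came from exosomes, vesicles that cells shed into body fluids, of adult wild-type mice of both sexes. Mice were untreated (baseline) or had received DOCA+Salt, deoxycorticosterone acetate with salt, which raises blood pressure through mineralocorticoid receptors. There was 1 library for each combination of fluid, sex and treatment, hence 4 plasma and 4 CSF libraries, and all were treated as a single batch. The labels count 8 mice and do not say which mice, or how many, gave each library, so the p-values below measure only the spread between unlike libraries.

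Most of these miRNAs restrain genes that neurons keep low or tune. MiR-124 is the classical neuron-specific miRNA and represses the splicing regulator Ptbp1 as neurons differentiate, and miR-128 dampens neuronal excitability in mice. MiR-132 is induced by neuronal activity through CREB, miR-138 limits the growth of dendritic spines, and miR-218 is enriched in motor neurons. MiR-219 promotes the maturation of oligodendrocyte precursors into myelinating cells in mice, and miR-190a lies within the gene for the cytoskeletal protein talin 2, Tln2. In fluids, a miRNA count cannot tell apart fewer contributing cells from less RNA per cell.

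Mature sequences of 5 of the 8 members were found in RefSeq for GRCm38.p6, and they are shown with the partner strands and relatives that the results below set beside them. Capitals mark the seed, bases 2 to 8, which selects a miRNA's targets.
miR-128-3p: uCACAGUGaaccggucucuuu
miR-128-1-5p: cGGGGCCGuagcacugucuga
miR-128-2-5p: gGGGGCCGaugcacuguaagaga
miR-218-5p: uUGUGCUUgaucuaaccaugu
miR-218-2-3p: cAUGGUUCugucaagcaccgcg
miR-132-3p: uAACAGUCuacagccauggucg
miR-212-3p: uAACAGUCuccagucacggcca
miR-190a-5p: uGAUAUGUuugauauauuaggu
miR-190b-5p: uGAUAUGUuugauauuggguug
miR-138-5p: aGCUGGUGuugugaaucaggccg
miR-138-2-3p: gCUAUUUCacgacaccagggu
MiR-128-3p, miR-138-5p and miR-218-5p are each made from a pair of hairpin genes that give the same mature sequence, while the partner strands differ between the hairpins, as the 5p strands of miR-128 show. MiR-132-3p shares its seed with miR-212-3p, the neighbour from the same cluster, miR-190a-5p with miR-190b-5p from another chromosome, and miR-218-5p with miR-7002-3p. Of the UMIs with the seed of miR-218-5p, that miRNA held 22.6%, 23.4%, 46.6% and 41.7% in plasma, in the order untreated female, treated female, untreated male and treated male, and 55.6%, 25.9%, 80.2% and 54.9% in CSF. The rest was miR-7002-3p, which held most of the seed's UMIs in every plasma library.

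On mm10 (GRCm38), the deposited positions placed most members inside other transcripts. MiR-128-3p was given at chr1:128202404-128202424 on the plus strand, in an intron of R3hdm1, and its second hairpin, Mir128-2, lies in an intron of Arpp21 on chromosome 9. MiR-218-5p was given at chr11:35616840-35616860 on the plus strand in an intron of Slit3, and its second hairpin lies in an intron of Slit2 on chromosome 5. MiR-132-3p was given at chr11:75173723-75173744 on the plus strand in an intron of the non-coding transcript 1700016P03Rik, and miR-190a-5p at chr9:67236700-67236721 on the minus strand in an intron of Tln2. The strands of miR-124 were given at chr14:64590709-64590728 and chr14:64590670-64590691 in an exon of the long non-coding RNA Mir124a-1hg, with further copies on chromosomes 2 and 3. MiR-138-5p was given at chr8:94324312-94324334 on the plus strand in an exon of the non-coding RNA C78859, with a further copy on chromosome 9. MiR-219a-2-3p was given at chr2:29845645-29845666 on the minus strand, outside any host gene. On the other strand of that position the annotation has miR-219b-5p, at chr2:29845647-29845668.

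Each molecule carried a unique molecular identifier (UMI) before amplification, and UMIs were counted. Plasma libraries held 158572 to 337240 UMIs and CSF libraries 237878 to 1082504, of which both female CSF libraries were shallow (237878 and 303625) and both male ones deep (753144 and 1082504). One UMI was therefore worth 2.97 to 6.31 CPM (UMIs scaled to 1000000 per library) in plasma and 0.924 to 4.20 CPM in CSF. Each UMI had been read 3.68 to 6.19 times in plasma and 1.19 to 1.69 times in CSF. MiRNAs of striated muscle made up 36.3% to 56.6% of all UMIs in CSF against 0.290% to 1.50% in plasma. Erythrocyte miRNAs made up 1.67% to 3.78% of UMIs in plasma and 0.354% to 0.614% in CSF, and leukocyte and platelet miRNAs 2.63% to 3.01% and 0.368% to 0.550%. The 3 miRNAs of the choroid plexus, the tissue that secretes CSF, made up 0.0274% to 0.0389% of UMIs in CSF and 0.0184% to 0.0297% in plasma. How far these other sources set the members' levels was not tested. Intervals given below cover counting error only.

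Together the 8 members made up 0.244% ± 0.0636 (SD, n = 4) of all UMIs in plasma and 0.144% ± 0.0276 (SD, n = 4) in CSF. Per library, always in the order untreated female, treated female, untreated male and treated male, the share was 0.326%, 0.176%, 0.217% and 0.258% in plasma. In CSF it was 0.135%, 0.132%, 0.124% and 0.185%. The DOCA-salt male CSF library lay above the lowest plasma library, so the fluids overlapped. MiR-128-3p alone supplied 55.2% to 82.1% of the members' UMIs in plasma and 64.0% to 79.1% in CSF, so the sum mostly follows that one miRNA. The list of 18 other neuron-enriched miRNAs, miR-9 included, made up 0.0996% to 0.161% of UMIs in plasma and 0.149% to 0.259% in CSF. All 18 were listed, with at most 2 of them at 0 UMIs in any library. The 4 other oligodendrocyte miRNAs made up 0.0148% to 0.0347% in plasma and 0.00362% to 0.0122% in CSF, so their summed share was lower in every CSF library than in any plasma library, while the mean CPM of miR-219a-2-3p was higher in CSF.

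The members spanned a wide range of abundance. MiR-128-3p stood far above the rest, at ranks 48 to 83 of the listed miRNAs in plasma and 46 to 85 in CSF. In CSF miR-218-5p and miR-219a-2-3p formed a middle tier, above the other 5 members within every library. In plasma miR-218-5p came next, while miR-219a-2-3p, at 21 to 37 UMIs, overlapped the other 5. Those 5 were counted with 5 to 32 UMIs in each plasma library and 2 to 88 in each CSF library. The median listed miRNA had 11 to 19 UMIs in a plasma library and 7 to 11 in a CSF library. Ranks of those 5 ran from 541 to 1529 of 1977 in plasma and from 226 to 1503 of 1961 in CSF, where the highest was that of miR-132-3p in the DOCA-salt male.

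**Figure D1:**
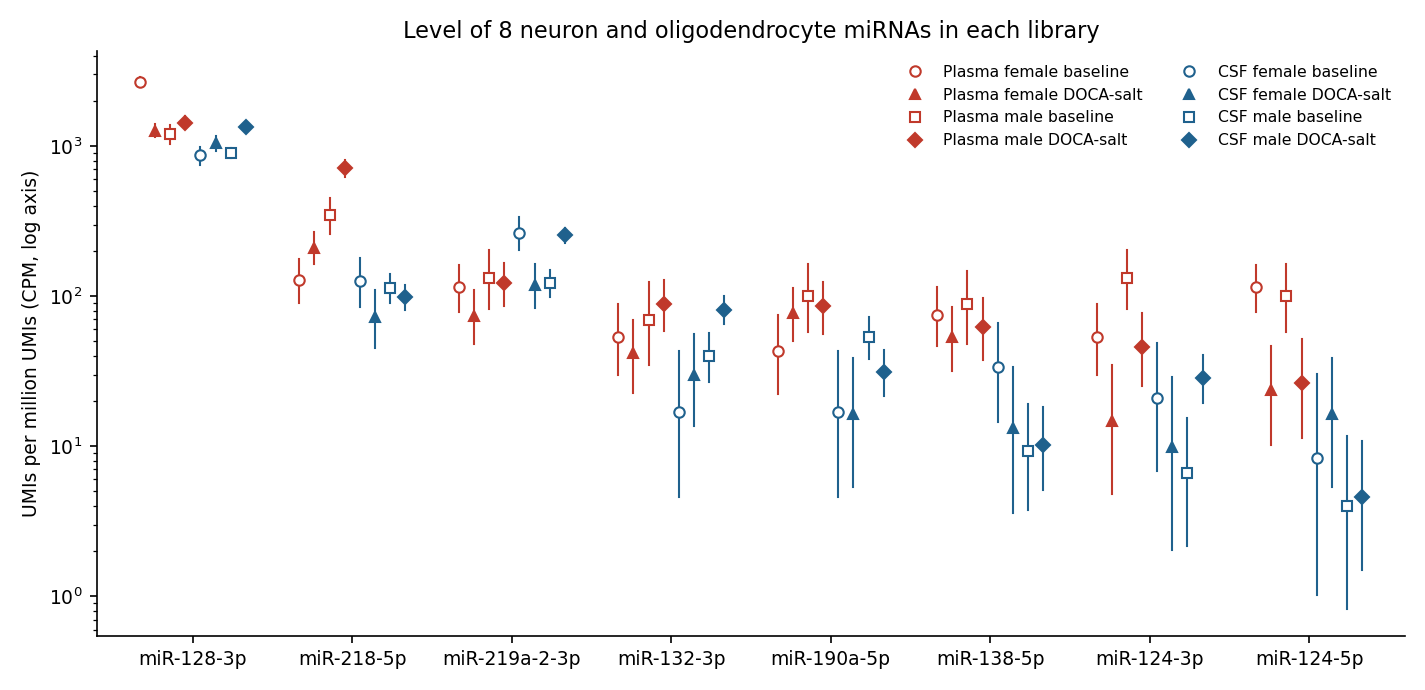
Level of each member in each library, in CPM on a log axis, plasma in red and CSF in blue, with open symbols for baseline and filled ones for DOCA-salt, and lines for the 95% counting interval. MiR-128-3p lies at 866 CPM or more in every library, and the CSF libraries of miR-218-5p, miR-138-5p and miR-124-5p all lie below the plasma ones. Scaled to total counts, as here, 63.7% of the 1146 miRNAs tested were called lower in CSF. How many of all miRNAs lay without overlap was not counted.

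MiR-128-3p had 748, 428, 190 and 437 UMIs in plasma, or 2673, 1269, 1198 and 1434 CPM. In CSF it had 206, 317, 673 and 1450 UMIs, or 866, 1044, 894 and 1339 CPM. The baseline female stood well above the other plasma libraries, and the fluids overlapped, at 1644 ± 693 CPM (SD, n = 4) in plasma and 1036 ± 217 CPM (SD, n = 4) in CSF. MiR-218-5p, the motor neuron miRNA, had 36, 71, 55 and 217 UMIs in plasma and 30, 22, 85 and 107 in CSF. That made 129, 210.5, 347 and 712 CPM in plasma and 126, 72.5, 113 and 98.8 CPM in CSF. Each CSF library lay below each plasma library, by a small margin against the baseline female. In the total-count test described below, 63.7% of all miRNAs tested were called lower in CSF.

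MiR-219a-2-3p, the oligodendrocyte member, had 32, 25, 21 and 37 UMIs in plasma and 63, 36, 92 and 275 in CSF. As CPM these were 114, 74.1, 132 and 121 in plasma and 265, 119, 122 and 254 in CSF. Both the baseline female and the DOCA-salt male of CSF stood above every plasma library, while the other CSF libraries lay among the plasma ones. It was the only member whose mean CPM was higher in CSF (190 ± 80.4, SD, n = 4) than in plasma (111 ± 25.4, SD, n = 4). Its rank ran from 541 to 677 in plasma and from 122 to 314 in CSF, with no overlap. How common such separation of ranks was among all miRNAs was not counted. In the main test described below, 26.2% of all miRNAs tested were called higher in CSF.

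MiR-132-3p, the activity-induced miRNA, had 15, 14, 11 and 27 UMIs in plasma and 4, 9, 30 and 88 in CSF. Its CPM were 53.6, 41.5, 69.4 and 88.6 in plasma and 16.8, 29.6, 39.8 and 81.3 in CSF, where the females were lowest and the DOCA-salt male highest. MiR-190a-5p had 12, 26, 16 and 26 UMIs in plasma and 4, 5, 40 and 34 in CSF, or 42.9, 77.1, 101 and 85.3 CPM against 16.8, 16.5, 53.1 and 31.4 CPM. Both members overlapped between the fluids in CPM, and in CSF both had their lowest levels in the females.

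MiR-138-5p, the regulator of dendritic spines, had 14 to 21 UMIs in plasma and 4 to 11 in CSF, which gave 69.8 ± 15.2 CPM (SD, n = 4) and 16.6 ± 11.5 CPM (SD, n = 4) with no overlap. MiR-124-3p, the strand that represses Ptbp1, had 15, 5, 21 and 14 UMIs in plasma and 5, 3, 5 and 31 in CSF. MiR-124-5p, its partner strand, had 32, 8, 16 and 8 UMIs in plasma and 2, 5, 3 and 5 in CSF. The 5p strand lay lower in every CSF library (8.37 ± 5.74 CPM, SD, n = 4) than in any plasma library (66.3 ± 48.0 CPM, SD, n = 4). The 3p strand overlapped (16.5 ± 10.1 and 61.7 ± 50.0 CPM, SD, n = 4). For miR-138-5p and miR-124-5p, lower in CSF is the direction in which 63.7% of all miRNAs tested were called with total counts. The order of levels below miR-218-5p was not resolved in plasma, where miR-219a-2-3p, miR-190a-5p, miR-138-5p, miR-124-5p, miR-132-3p and miR-124-3p had ranges that overlapped their neighbours'. In CSF miR-219a-2-3p came second on average, with a range that overlapped that of miR-218-5p, and the next members down also overlapped their neighbours.

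The comparison of CSF with plasma asks which miRNAs are carried more by one fluid. It was tested with edgeR's quasi-likelihood test on UMI counts of all 8 libraries, with trimmed-mean (TMM) scaling, Benjamini-Hochberg adjustment over all tested miRNAs and a threshold of 0.05. The 2 miR-124 strands were too sparse to pass the count filter, and the other 6 members were tested among 1146 miRNAs. Of these 1146, 593 (51.7%) passed the threshold, 26.2% of all as higher and 25.6% as lower in CSF. Among the 6 tested members, 2 were higher in CSF, miR-219a-2-3p and miR-132-3p, and none was lower, that is 33.3% of those tested beside 26.2% of all miRNAs. The median log2 difference was 0.86 over the 6 members and -0.12 over all miRNAs tested.

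MiR-219a-2-3p was higher in CSF by 2.53 ± 0.43 on the log2 scale (SE, 4 against 4 libraries, edgeR adjusted p = 9.00e-05). On the TMM-scaled level its plasma libraries lay between 51.5 and 66.3 and its CSF libraries between 149 and 666 CPM. It was the only member with no overlap on that scale. How common such separation was among all miRNAs was not counted, and 26.2% of them were called higher in CSF. Matched by sex and treatment, the log2 ratio of CSF over plasma was 2.20 in untreated females, 1.51 in treated females, 2.19 in untreated males and 3.32 in treated males. MiR-132-3p was higher by 1.44 ± 0.51 (edgeR adjusted p = 0.0238), with TMM-scaled levels of 19.6 and 37.2 CPM in the female and 99.3 and 213 CPM in the male CSF libraries. The plasma libraries of miR-132-3p, at 28.8 to 47.4 CPM, lay among the female CSF values. Without the DOCA-salt male CSF library the difference of miR-132-3p was 0.66 and its call was lost (edgeR adjusted p = 0.289). It was also lost without either female plasma library, at edgeR adjusted p = 0.0545 without the baseline and 0.0734 without the DOCA-salt one.

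The remaining 4 members did not pass. MiR-128-3p differed by 1.09 ± 0.46 (edgeR adjusted p = 0.0517), just past the threshold, and was called higher in CSF in 5 of 15 alternative fits. MiR-190a-5p differed by 0.62 ± 0.48 (0.292) and miR-138-5p by -0.58 ± 0.38 (0.211). MiR-218-5p differed by 0.02 ± 0.46 (edgeR adjusted p = 0.978). With no count filter, miR-124-5p was lower in CSF by a log2 difference of -1.44 ± 0.57 (edgeR adjusted p = 0.0496), on 2 to 5 UMIs per CSF library, where 16.6% of all miRNAs were lower. MiR-124-3p differed by 0.18 ± 0.55 in that fit (edgeR adjusted p = 0.852).

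The direction of these differences depended on the scaling. Scaled by total counts, the median log2 difference of all miRNAs moved to -1.70, and 69.3% were called, 5.58% higher and 63.7% lower in CSF. On that scale miR-128-3p (-0.67), miR-132-3p (-0.50), miR-190a-5p (-1.28) and miR-218-5p (-1.77) turned negative. MiR-190a-5p, miR-218-5p and miR-138-5p (-2.20) were then called lower, at edgeR adjusted p = 0.0328, 0.00378 and 0.00149. MiR-219a-2-3p was positive at 0.79 ± 0.47 and was not called (edgeR adjusted p = 0.136), and its pair of untreated males had a log2 ratio of -0.17. MiR-128-3p, miR-132-3p, miR-190a-5p and miR-219a-2-3p lay above the median of all miRNAs on both scales. The muscle miRNAs, at 36.3% to 56.6% of CSF UMIs, enter the total counts, and their part in the shift was not tested.

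**Figure D2:**
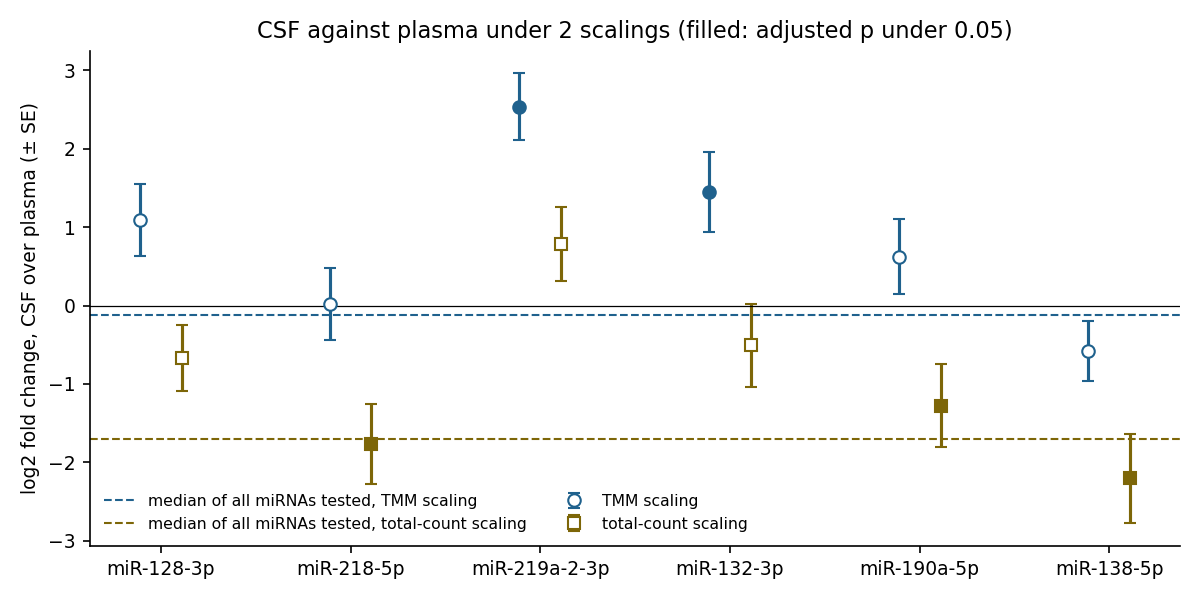
Log2 difference of CSF over plasma for the 6 members tested, with the SE of edgeR's fit, under TMM scaling (circles) and total-count scaling (squares), filled where adjusted p was under 0.05, and dashed lines for the median of all miRNAs tested on each scale. All 6 members move down together with the median, and only miR-219a-2-3p remains above 0 on both scales.

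A ratio between 2 miRNAs of one library needs no scaling. Per 100 UMIs of miR-128-3p, there were 4.28, 5.84, 11.1 and 8.47 UMIs of miR-219a-2-3p in plasma. In CSF there were 30.6, 11.4, 13.7 and 19.0. All 4 CSF libraries lay above all 4 plasma libraries, with the lowest CSF value just above the highest plasma value, and the means were 18.6 ± 8.57 and 7.41 ± 2.98 (SD, n = 4). MiR-124-5p went the other way, with 0.345 to 1.58 UMIs per 100 of miR-128-3p in CSF and 1.83 to 8.42 in plasma, again without overlap and on few counts. The other 5 ratios overlapped between the fluids, among them that of miR-132-3p, at 3.83 ± 1.82 in CSF and 4.31 ± 2.01 in plasma (SD, n = 4). The ratio to miR-128-3p was chosen after the data were seen. How many of all miRNAs lay without overlap in it was not counted. MiR-128-3p itself lay above the median of all miRNAs on both scales. A lower ratio in CSF, as for miR-124-5p, is therefore the direction of the median miRNA.

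**Figure D3:**
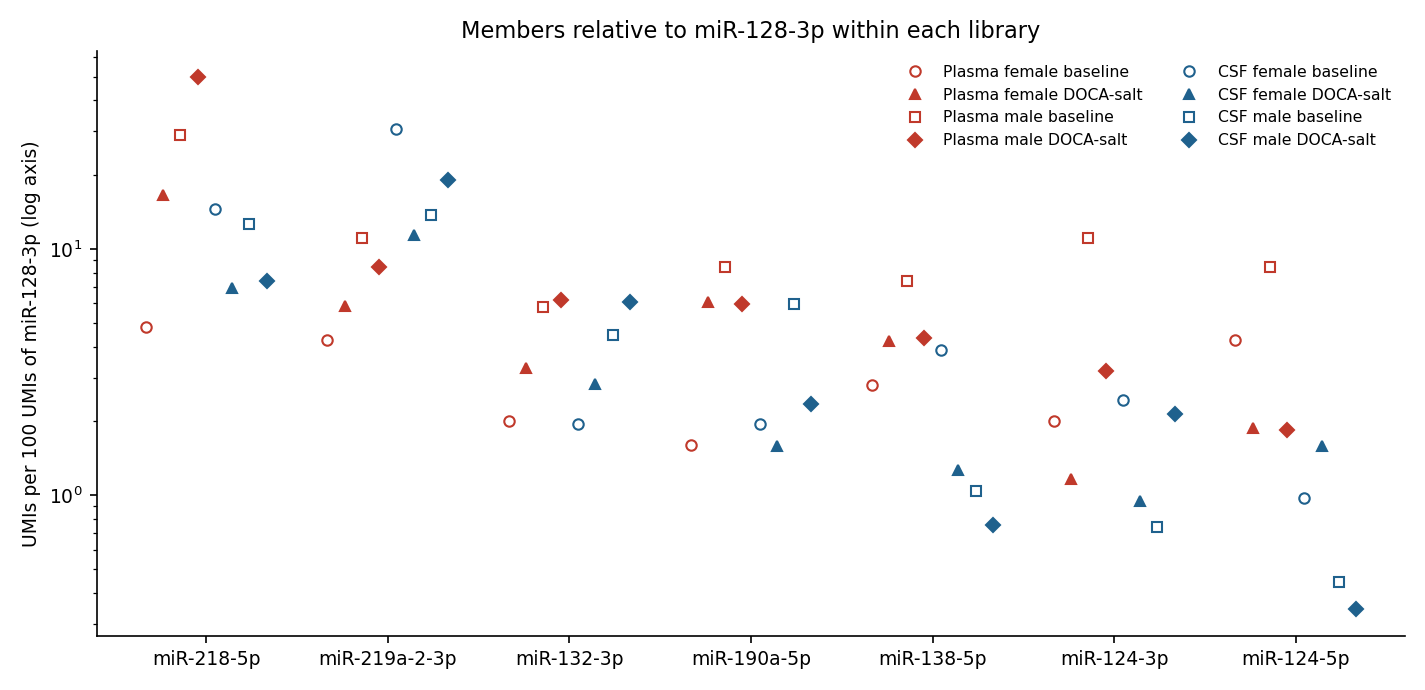
UMIs of the other members per 100 UMIs of miR-128-3p in each library (log axis), plasma in red and CSF in blue. MiR-219a-2-3p is higher in every CSF library (11.4 to 30.6) than in any plasma library (4.28 to 11.1), and miR-124-5p is lower. How many of all miRNAs lay without overlap in this ratio was not counted.

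Each hairpin can give a mature miRNA from either arm, and cells usually keep one of them. The share of member and partner strand UMIs that fell on the member strand also needs no scaling. For miR-128 the 3p strand held 94.6%, 90.3%, 76.0% and 90.5% of the UMIs of both strands in plasma, and 95.4%, 97.5%, 98.7% and 98.7% in CSF. Every CSF library lay above every plasma library, although the 95% intervals of the baseline females overlapped (92.7% to 96.0% in plasma and 91.7% to 97.8% in CSF). Pooled over libraries, the 3p strand held 90.2% in plasma and 98.3% in CSF.

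The 5p strands of miR-128, which tell its hairpins apart, differed from each other. MiR-128-1-5p, from the R3hdm1 hairpin, had 28, 28, 42 and 29 UMIs in plasma and 1, 1, 4 and 5 in CSF, and was lower in CSF by a log2 difference of -2.92 ± 0.50 (edgeR adjusted p = 8.79e-05). MiR-128-2-5p, from the Arpp21 hairpin, had 15, 18, 18 and 17 UMIs in plasma and 9, 7, 5 and 14 in CSF, a log2 difference of -0.30 ± 0.40 (edgeR adjusted p = 0.538). Thus the R3hdm1 hairpin had more 5p UMIs in every plasma library and the Arpp21 hairpin in every CSF library. MiR-128-1-5p passed the count filter only through its plasma libraries, so its call is not independent of that filter. The difference between both strands was not tested itself.

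For miR-218 the 5p strand held 25.4%, 40.3%, 69.6% and 68.2% in plasma and 71.4%, 59.5%, 85.9% and 92.2% in CSF. In both fluids the females had the lower shares, and each CSF library lay above the plasma library of the same sex and treatment. The partner miR-218-2-3p had 91, 95, 21 and 93 UMIs in plasma and 9, 9, 5 and 5 in CSF. It was lower in CSF by a log2 difference of -2.57 ± 0.47 (edgeR adjusted p = 1.75e-04), where miR-218-5p itself differed by 0.02. MiR-218-2-3p passed the count filter only through its plasma libraries, where it was high, so its call is not independent of that filter. For miR-132 the pooled 3p share was 68.4% in plasma and 86.8% in CSF, and for miR-190a the 5p share was 79.2% and 96.5%, with libraries of both fluids overlapping. The male CSF libraries had 40 and 34 UMIs of miR-190a-5p and none of miR-190a-3p, which with exact Clopper-Pearson intervals puts the 5p share at 91.2% or more and 89.7% or more.

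For miR-124 the 3p strand held 46.2% of UMIs pooled over plasma and 74.6% pooled over CSF, where the DOCA-salt male gave 31 of the 44 UMIs. MiR-138-5p was the minor strand in both fluids, with 21.7% in plasma and 22.1% in CSF. Its partner miR-138-2-3p had 40 to 60 UMIs per plasma library and 12 to 26 per CSF library. That partner was lower in CSF by a log2 difference of -0.84 ± 0.33 (edgeR adjusted p = 0.0407). MiR-138-2-3p also passed the count filter only through its plasma libraries, where it was high, so its call is not independent of that filter.

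**Figure D4:**
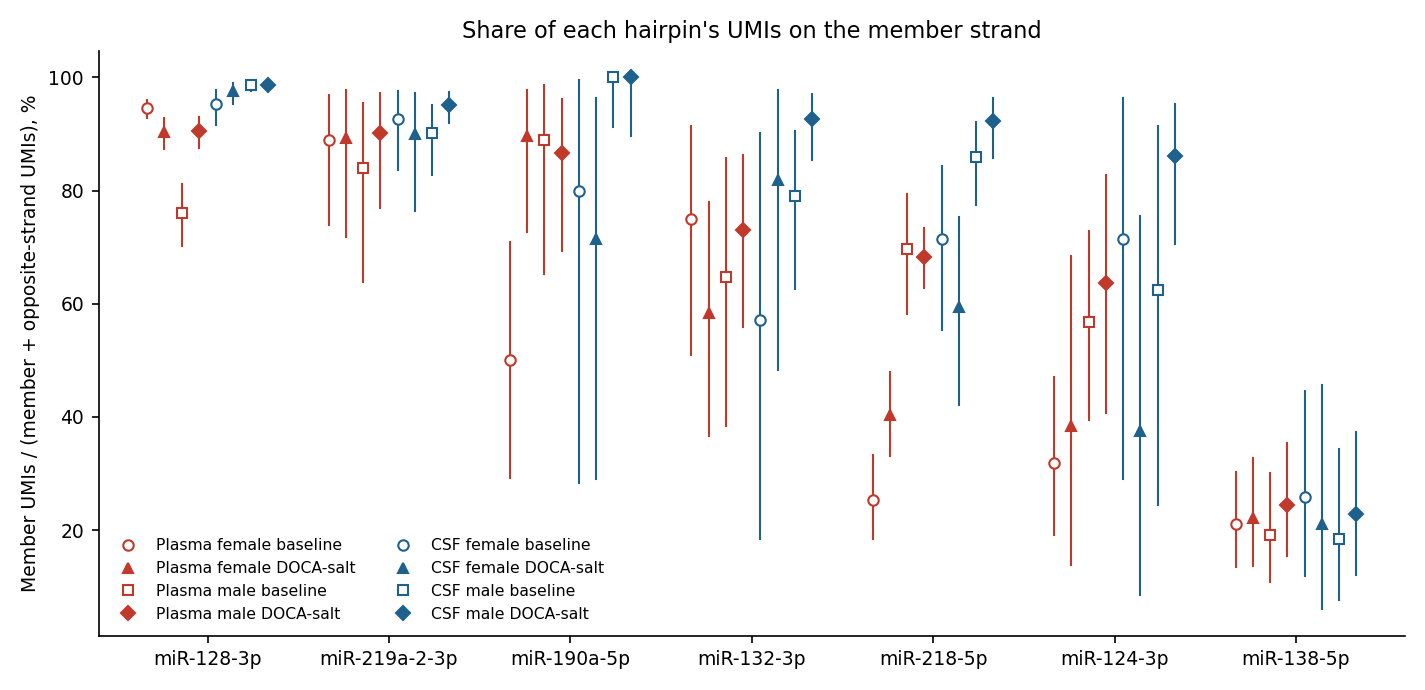
Share of member and partner strand UMIs that fell on the member strand (percent, points with 95% exact binomial intervals) in each library, plasma in red and CSF in blue. For miR-219a-2-3p the partner is miR-219a-5p, which either miR-219a hairpin can give, so its share is not that of a single hairpin. The CSF libraries of miR-128-3p lie at 95.4% to 98.7% and the plasma libraries at 76.0% to 94.6%, while miR-138-5p is the minor strand in all libraries.

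The relatives of the oligodendrocyte member differed between the fluids in both directions. MiR-219a-1-3p, the 3p strand of the other miR-219a hairpin, had 35, 20, 20 and 39 UMIs in plasma and 2, 0, 3 and 9 in CSF. MiR-219a-1-3p was lower in CSF by a log2 difference of -2.36 ± 0.50 (edgeR adjusted p = 6.00e-04), and passed the count filter only through its plasma libraries. MiR-219b-5p, from the opposite strand of the miR-219a-2-3p position, was also lower (-1.03 ± 0.41, edgeR adjusted p = 0.0407). It too passed the count filter only through its plasma libraries, where it was high, so neither call is independent of that filter. MiR-219a-5p, which either miR-219a hairpin can give, had 3 to 4 UMIs per plasma library and 4 to 14 per CSF library and was too sparse for the main test. On the TMM-scaled level it lay higher in every CSF library than in any plasma library, with means of 27.0 and 8.44 CPM, and the log2 ratios of the matched pairs were 1.50, 1.33, 1.25 and 2.05. With no count filter it was higher in CSF by a log2 difference of 1.73 ± 0.52 (edgeR adjusted p = 0.0107), where 16.4% of all miRNAs were higher. With total counts its pairs had ratios of 0.50, 0.47, -1.11 and -0.24, that is, of either sign. MiR-219c-5p, on 1 to 9 UMIs per library, differed by 1.13 ± 0.67 with no count filter and did not pass (edgeR adjusted p = 0.2). Among the seed partners that were tested, miR-212-3p differed by 0.40 ± 0.43 (edgeR adjusted p = 0.458) and miR-190b-5p by 0.55 ± 0.44 (0.307).

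The other brain miRNAs gave these counts in the same test. Of the 18 other neuron-enriched miRNAs 9 were tested, 7 were higher in CSF and none was lower, with a median log2 difference of 1.38, against 26.2% of all miRNAs that were higher. They were miR-9-3p (5.50), miR-9-5p (4.58), miR-129-5p (1.81), miR-139-5p (1.68), miR-383-5p (1.38), miR-7a-5p (1.34) and miR-137-3p (1.08). MiR-9-3p passed the count filter only through its CSF libraries, where it was high, so its call is not independent of that filter. How many other members of these lists passed it through a single fluid was not counted. With total-count scaling 2 of the 9 were higher, both strands of miR-9, and 1 was lower. Of 4 other oligodendrocyte miRNAs 2 were tested, and miR-338-3p, the classical partner of miR-219 in oligodendrocyte maturation, was higher (1.47 ± 0.52, edgeR adjusted p = 0.0247) and miR-219a-1-3p lower. With total-count scaling miR-338-3p turned negative and was not called (-0.42, edgeR adjusted p = 0.508), whereas miR-219a-1-3p was still called lower. Of the choroid plexus miRNAs 1 of 2 tested, miR-204-5p, was higher (3.22). All 4 tested striated muscle miRNAs were higher in CSF, 2 of 4 erythrocyte miRNAs were higher and 1 lower, and 3 of 4 leukocyte and platelet miRNAs were lower. With total-count scaling these counts were 4 of 4 muscle miRNAs higher, 0 of 4 erythrocyte miRNAs higher and 2 lower, and 4 of 4 leukocyte and platelet miRNAs lower, and of the choroid plexus miRNAs 1 was higher and 1 lower. All these lists were chosen with results of these data known.

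The treatment comparison asks which miRNAs in each fluid differ between DOCA-salt and baseline mice. In plasma, 15 of 1398 miRNAs (1.07%) passed the threshold in the edgeR fit with sex as a term, 0.787% as lower. All 8 members were tested and 1, miR-124-5p, was lower with DOCA-salt. It passed the count filter only through its baseline libraries, where it was high, so its call is not independent of that filter. With no count filter it was still called lower. Its 32 UMIs in the baseline female stood against 8 in the DOCA-salt female, and 16 in the baseline male against 8 in the DOCA-salt male, or 114 against 23.7 CPM and 101 against 26.3 CPM. Both treated libraries lay below both baseline libraries, with a log2 difference of -1.93 ± 0.49 (edgeR adjusted p = 0.0428). MiR-124-3p had 53.6 against 14.8 CPM in females and 132 against 45.9 CPM in males. It also had both treated libraries below both baseline ones and did not pass (-1.49 ± 0.52, edgeR adjusted p = 0.162). How many of all miRNAs had both treated libraries below both baseline ones was not counted.

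The strands of miR-124 gave ratios of like size in each sex. For miR-124-5p the log2 ratio of treated over baseline was -1.91 in females (95% counting interval -3.37 to -0.89) and -1.77 in males (-3.28 to -0.54). For miR-124-3p it was -1.45 (-3.44 to -0.09) and -1.40 (-2.52 to -0.39). These pairs are 1 library against 1 and carry no test. The call of miR-124-5p was fragile: leaving out the untreated female, the treated female or the treated male put the edgeR adjusted p at 0.187, 0.754 or 0.535, with log2 differences of -1.65, -2.06 and -1.79. It was also lost with total-count scaling (0.261) and with read counts (0.426), and over the 11 alternatives its adjusted p ran from 0.0159 to 0.997.

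MiR-218-5p had higher levels with DOCA-salt in both sexes of plasma, 210.5 against 129 CPM in females and 712 against 347 CPM in males, and did not pass (1.04 ± 0.48, edgeR adjusted p = 0.329). Its treated female lay below the untreated male, so the treatment groups overlapped. Muscle miRNAs made up 0.596% and 0.648% of UMIs in the baseline and DOCA-salt female and 0.290% and 1.50% in the baseline and DOCA-salt male of plasma, and 1 of 5 tested was higher with DOCA-salt. Their part in the values of miR-218-5p was not tested. MiR-128-3p differed by -0.25 ± 0.48, miR-138-5p by -0.33 ± 0.45, miR-219a-2-3p by -0.22 ± 0.41, miR-132-3p by 0.16 ± 0.47 and miR-190a-5p by 0.44 ± 0.45, each with an edgeR adjusted p of 0.715 or more. None of the 9 other neuron-enriched and 3 other oligodendrocyte miRNAs tested passed in plasma, with medians of -0.48 and -0.68 against -0.03 over all miRNAs.

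**Figure D5:**
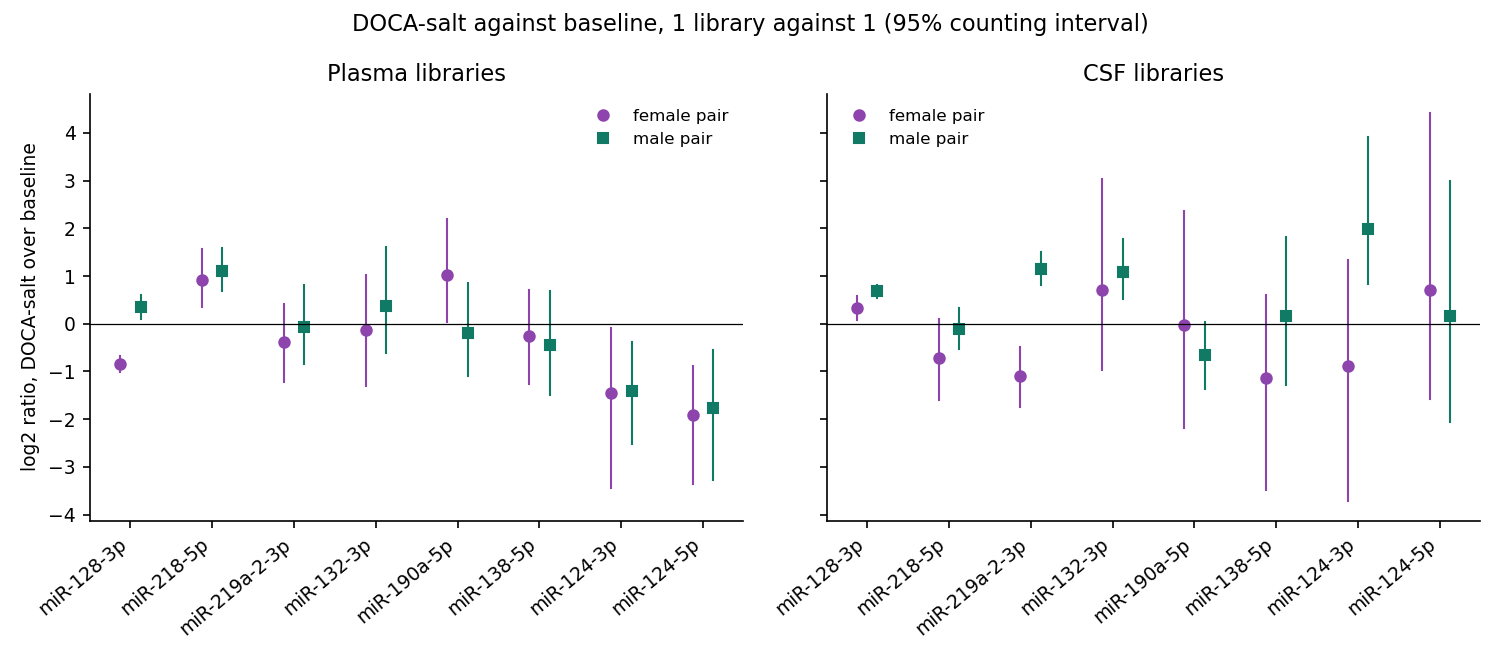
Log2 ratio of DOCA-salt over baseline in the female pair (circles) and the male pair (squares) of libraries for each member, in plasma and in CSF, with lines for the 95% counting interval of 1 library against 1. In plasma both strands of miR-124 lie below 0 in both sexes, and in CSF the female and male pairs of miR-219a-2-3p lie on opposite sides of 0.

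In CSF, 2 of 1036 miRNAs (0.193%) passed for DOCA-salt in edgeR's test, and none of the 6 members tested did. At an unadjusted p under 0.05 there were also 0 members, and DESeq2's Wald test gave 0. MiR-132-3p, at 16.8 and 29.6 CPM in the baseline and treated females and 39.8 and 81.3 CPM in the males, differed by 1.05 ± 0.55 (edgeR adjusted p = 0.604). MiR-124-3p differed by 1.08 ± 0.64 (edgeR adjusted p = 0.624), with 5 and 3 UMIs in females and 5 and 31 UMIs in males. MiR-128-3p differed by 0.50 ± 0.48 and miR-218-5p by -0.39 ± 0.53. MiR-190a-5p differed by -0.48 ± 0.57.

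MiR-219a-2-3p differed by 0.07 ± 0.56 over both sexes of CSF (edgeR adjusted p = 0.987), and its pairs pointed in opposite directions. The female pair, 265 and 119 CPM, had a log2 ratio of -1.09 (95% counting interval -1.73 to -0.49), and the male pair, 122 and 254 CPM, had 1.14 (0.81 to 1.51). The counting intervals of the pairs did not overlap, and with 1 library per combination the difference between the sexes was not tested. Other oligodendrocyte miRNAs had 0 of 1 tested past the threshold, and other neuron-enriched ones 0 of 9, with a median of 0.39.

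Whether DOCA-salt acted alike in the fluids was tested as an interaction in one edgeR fit of all libraries. The interaction passed for 0 of 1465 miRNAs (0%), with 113 at an unadjusted p under 0.05 and 1 by DESeq2's Wald test, and for none of the 8 members. The members with the lowest p were miR-124-3p, at 2.49 ± 0.95 more positive in CSF (edgeR adjusted p = 0.534), miR-124-5p at 2.48 ± 1.07 (0.623) and miR-218-5p at -1.49 ± 0.64 (0.623). The CSF counts of both miR-124 strands, 2 to 5 UMIs in 7 of the 8 values, limited that comparison.

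The comparison of the sexes gave its calls in CSF. There 46 of 1036 miRNAs (4.44%) passed, 2.9% as higher in males, in the edgeR fit with treatment as a term. Of the 6 members tested, 2 were higher in males. MiR-132-3p, with 30 and 88 UMIs in males against 4 and 9 in females, differed by 2.49 ± 0.57 (edgeR adjusted p = 0.00195). MiR-190a-5p, with 40 and 34 against 4 and 5, differed by 2.40 ± 0.61 (edgeR adjusted p = 0.00539). It passed the count filter only through its male libraries, where it was high, so its call is not independent of that filter. With no count filter both members were still called higher in males. In CPM the male libraries of both lay above the female ones. They were at 39.8 and 81.3 against 16.8 and 29.6 for miR-132-3p and at 53.1 and 31.4 against 16.8 and 16.5 for miR-190a-5p. How many of all miRNAs separated the sexes in this way was not counted. The other 4 tested members were also higher on average in males and did not pass: miR-128-3p (1.34), miR-124-3p (1.29), miR-218-5p (1.27) and miR-219a-2-3p (1.12), with edgeR adjusted p from 0.0884 to 0.274.

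Both calls were lost with total-count scaling, at 1.37 ± 0.52 for miR-132-3p (edgeR adjusted p = 0.0664) and 1.28 ± 0.58 for miR-190a-5p (0.0968), under which the median of all miRNAs moved from -0.06 to -1.19. On that scale 328 miRNAs (31.7%) were called, 6 higher and 322 lower in males, against 30 higher and 16 lower with TMM. MiR-132-3p was not called without either female library or without the DOCA-salt male (edgeR adjusted p = 0.392, 0.745 and 0.256), and miR-190a-5p was not called without either female library (0.367 and 0.745). Muscle miRNAs made up 38.7% and 36.3% of UMIs in the female and 56.6% and 49.1% in the male CSF libraries, and the males were sequenced deeper. Depth and muscle share cannot be told apart from sex in these libraries. Of the other lists, 2 of 9 neuron-enriched miRNAs, miR-7a-5p (2.14) and miR-383-5p (2.05), 1 of 1 oligodendrocyte miRNA, miR-338-3p (1.99), 1 of 4 muscle and 2 of 3 erythrocyte miRNAs were higher in male CSF, and 0 of 4 leukocyte and platelet miRNAs were. With total-count scaling miR-7a-5p, miR-383-5p and miR-338-3p were not called (edgeR adjusted p = 0.105, 0.161 and 0.264), nor was any erythrocyte miRNA, and 2 neuron-enriched miRNAs, miR-139-5p (-1.93) and miR-488-3p (-1.71), were called lower in males. The muscle call, miR-206-3p, was kept. The seed partner miR-190b-5p was higher too, with 35 and 46 UMIs against 7 and 7 (1.89 ± 0.56, edgeR adjusted p = 0.0242). Of the UMIs with the seed of miR-132-3p, that miRNA held 78.9% and 89.8% in males and 33.3% and 64.3% in females of CSF, the rest being miR-212-3p.

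In plasma, 2 of 1398 miRNAs (0.143%) differed between the sexes and none of the 8 members did, although 2 members had an unadjusted p under 0.05 and DESeq2's Wald test gave 0. MiR-218-5p, at 347 and 712 CPM in males against 129 and 210.5 CPM in females, had the larger difference of those (1.24 ± 0.49, edgeR adjusted p = 0.445), followed by miR-124-3p (1.08 ± 0.52, 0.633). MiR-128-3p was lower on average in males by a log2 difference of -0.84 ± 0.48 (edgeR adjusted p = 0.667).

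Over the 8 libraries, the TMM-scaled log2 levels of the 5 members with a mean of at least 20 UMIs correlated with each other with Pearson's r between 0.09 and 0.80, highest between miR-132-3p and miR-128-3p and lowest between miR-218-5p and miR-128-3p. Among 731 miRNAs compared, the miRNAs most like miR-219a-2-3p were miR-9-5p (r = 0.96) and miR-300-3p (0.96). Those most like miR-132-3p were miR-324-5p (0.96) and miR-1981-5p (0.95), and those most like miR-128-3p were miR-361-5p (0.94) and miR-15a-5p (0.91). For miR-190a-5p they were miR-6364 (0.94) and miR-26b-5p (0.91), and for miR-218-5p they were miR-190b-5p (0.82) and miR-29c-5p (0.74). These values are descriptions over 8 libraries that also differ in fluid, depth and muscle share.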

How the data were processed

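Exosomal RNA was isolated from plasma and CSF, and sequencing libraries came from a QIAseq miRNA kit that tags molecules with UMIs and were read at 150 bp, per the labels' protocols. Reads were trimmed with Cutadapt 2.7, aligned with Bowtie 1.3.0 and normalized with edgeR, with builds mm10 and GRCm38, per the labels and the submitters' processing notes. The deposited tables hold, for each mature miRNA and library, UMI counts and read counts without scaling, and CPM, the UMI count scaled to 1000000 UMIs per library. CPM was recomputed here from the UMI counts. The members and all lists were chosen with earlier results of these data known.

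Low UMI counts were removed with filterByExpr, TMM set the scaling, and edgeR 4.0.16 (R 4.3.3, limma 3.58.1) gave quasi-likelihood tests, adjusted by Benjamini-Hochberg over all tested miRNAs. CSF was tested against plasma with fluid as the only term, and treatment and sex were tested within a fluid with both as terms. Only 1 residual degree of freedom is left there, and the spread is largely borrowed across miRNAs. Single pairs of libraries got exact conditional intervals, with no test, and shares got Clopper-Pearson intervals. The fits were checked on simulated data. Plasma libraries held 158572 to 337240 UMIs and CSF libraries 237878 to 1082504, so 3 UMIs, the limit for a count of 0, equal at most 18.9 and 12.6 CPM. Named were all members, their partner strands and relatives, members of lists that passed, and the 2 miRNAs most like each member. Alternatives were DESeq2's size factors, total-count scaling, DESeq2 1.42.0's Wald test, no filter, read counts, other model terms and leaving out each library. Sequences came from RefSeq and host genes from GENCODE on mm10. In the CSF table the CPM values of the muscle miRNAs miR-206-3p and miR-1a-3p were exchanged, which touches no member.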

Additional observations from a re-analysis of the deposited data

Results flagged for a closer look

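Of the 16 groups of 4 libraries formed by 8 members and 2 fluids, 2 held a library set apart from the other 3 by more than the limit that chance passes in about 1 of 20 groups. MiR-128-3p reached 2673 CPM in the plasma of the baseline female, and the other plasma libraries lay between 1198 and 1434 CPM. MiR-138-5p reached 33.6 CPM, on 8 UMIs, in the CSF of the baseline female, and the other CSF libraries lay between 9.29 and 13.2 CPM. The log2 ratio of DOCA-salt over baseline had opposite signs in the female and male pair in 6 of the 16 combinations of member and fluid, and these differences were not tested. The 95% counting intervals of both pairs excluded 0 in 2 of them, miR-128-3p in plasma (-0.84 in the female and 0.35 in the male pair) and miR-219a-2-3p in CSF (-1.09 and 1.14). In the other 4 at least 1 interval included 0. These were, again female before male, miR-132-3p in plasma (-0.13 and 0.37), miR-190a-5p in plasma (1.02 and -0.18), miR-124-3p in CSF (-0.88 and 1.99) and miR-138-5p in CSF (-1.14 and 0.16).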

How the results depend on the processing

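Counts of members past the threshold were recomputed under each alternative, and the members behind a count could change. Between fluids miR-219a-2-3p passed in 14 of 15 alternatives, miR-132-3p in 10 and miR-128-3p in 5. For CSF against plasma the count of 2 became 3 with DESeq2's size factors, total-count scaling and no filter, stayed at 2 with a replicate block for each combination of sex and treatment, which is not a pairing the labels state, and ran from 1 to 3 when a library was left out (1 without the DOCA-salt female plasma or the DOCA-salt male CSF library). For DOCA-salt in plasma the count of 1 became 0 with total-count scaling, DESeq2's Wald test, read counts, treatment as the only term and the joint fit of both fluids, and ran from 0 to 2 when a library was left out. For sex in CSF the count of 2 became 0 with total-count scaling, DESeq2's Wald test, read counts and sex as the only term, and ran from 0 to 1 when a library was left out. The other 3 comparisons stayed at 0 members. Within a fluid, leaving out a library left 1 in an arm, which is assumed to vary like the others, and dropped the second term.

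Signs reversed in 13 of the fits of single members that kept all libraries. In CSF against plasma, total-count scaling gave -0.67 for miR-128-3p, -0.50 for miR-132-3p, -1.77 for miR-218-5p and -1.28 for miR-190a-5p, and read counts gave -0.061 for miR-218-5p. MiR-219a-2-3p gave 0.25 for DOCA-salt in plasma with read counts, -0.0033 and -0.014 for DOCA-salt in CSF with total-count scaling and read counts, -0.015 for sex in CSF with total-count scaling and -0.16 for the interaction with read counts. MiR-138-5p gave 0.23 and 0.060 for sex in plasma with total-count scaling and read counts, and 0.20 for the interaction with read counts. When a library was left out, signs were not stable for miR-218-5p between fluids (-0.25 to 0.59). For DOCA-salt in plasma this held for miR-128-3p (-0.96 to 0.53) and miR-132-3p (-0.15 to 0.53). For DOCA-salt in CSF it held for miR-128-3p (-0.38 to 1.34), miR-132-3p (-0.81 to 2.78), miR-218-5p (-1.31 to 0.35), miR-219a-2-3p (-1.10 to 1.17) and miR-190a-5p (-1.99 to 0.084). For sex in plasma it held for miR-124-5p (-1.64 to 0.79), miR-138-5p (-0.36 to 0.040), miR-219a-2-3p (-0.085 to 0.28) and miR-190a-5p (-0.23 to 0.87), and for the interaction for miR-138-5p (-0.88 to 0.55) and miR-219a-2-3p (-0.82 to 1.36). In the main TMM fit of all libraries none of these members passed the threshold in the comparison named, apart from miR-132-3p between fluids. The cause was not tested.

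Counts over all miRNAs moved as well. For DOCA-salt in plasma the 15 became 29 with DESeq2's size factors or no filter, 1 with the Wald test, 0 with total-count scaling, read counts, the single term and the joint fit, and 0 to 73 when a library was left out. For DOCA-salt in CSF the 2 became 4 with no filter and 0 or 1 with each of the other alternatives. For sex in plasma the 2 became 5 with DESeq2's size factors and 10 with no filter, 0 with the other full fits and 0 to 28 when a library was left out. For sex in CSF the 46 became 328 with total-count scaling, 25 with the Wald test, 5 with read counts, 0 with the single term, 30 with the joint fit and 0 to 30 when a library was left out. For the interaction the 0 became at most 3. In CSF against plasma, total-count scaling moved the split from 300 higher and 293 lower to 64 and 730. Counts of 2 to 31 UMIs for the miR-124 strands in CSF and the single library per combination limit every treatment and sex comparison.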
